A study of Mus musculus with 7 samples.

Results

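TCRBD01-01 and TCRBD02-01 are the D genes of the mouse TCRβ locus, called D1 and D2 here. Their rearrangements were taken from the per-mouse lists by the D gene named for each record, and productive rearrangements (in frame, without a stop codon) were kept apart from non-productive ones. Of 10930 rearrangements, 8952 named a single D gene, D1 in 4590 and D2 in 4362. The other 1978 had an empty D gene field and were counted apart. In 1751 of those records, 88.5% of them, both D genes were listed as a tie, and in 227 the junction was typed as V joined to J with no D nucleotides.

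The rearrangements came from CD8 TILs, tumor-infiltrating CD8 T cells, of C57BL/6 mice that were 6 to 8 weeks old. Each mouse carried an A223 tumor, a subcutaneously grown line of squamous cell carcinoma, and was treated with anti-PD-L1 antibody once the tumor measured about 250 to 350 mm3. There were 3 responders (R; 1R, 2R and 3R) and 4 non-responders (NR; 4NR to 7NR), all treated, with 1 genomic DNA library per mouse. All 7 tumors derive from 1 transplanted line. Genomic DNA carries no expression markers, so the labelled cell type could not be checked against marker genes.

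A TCRβ chain is assembled in the thymus. A D gene first joins a J segment, and a V gene then joins the DJ product. The locus carries a pair of D-J clusters in tandem, D1 followed by the TCRBJ01 segments and then D2 followed by the TCRBJ02 segments. D1 lies before both J clusters and can join either, whereas D2 lies behind TCRBJ01, so that deletion can join it only to TCRBJ02. Terminal transferase adds nucleotides without a template, the N insertions, at the V-D and D-J junctions, and nucleases trim the D gene from both ends. What remains of the D gene, here called the D remnant, forms the centre of CDR3, the loop that touches the peptide.

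The D genes are short and nearly alike, and they are shown first because every later count rests on telling them apart. They were read from the untrimmed records in the files, 87 of D1 and 54 of D2, which gave 1 sequence of 12 nucleotides for D1 and 1 of 14 nucleotides for D2. The capital marks the base at which the centre of the gene differs.
TCRBD01-01: gggacAgggggc
TCRBD02-01: gggacTgggggggc
Counted from 1 at the 5′ end of D1, the differences were A6T and C12G, and D2 carried a longer run of G. The remnants of all 8952 records lay within these sequences. A short stretch of G, or the shared first 5 bases, therefore fits both genes. The commonest remnant of D1 was its first 6 nucleotides, in 322 records. The commonest remnant of D2 was its first 11 nucleotides, in 264 records.

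The CDR3 amino acid sequence with the most templates among those built from both genes, called CDR3 A here, shows how either D can fill the same junction. The most abundant nucleotide version of each kind is given as the 87-nucleotide read of the files, with the D remnant in capitals between TCRBV16-01 and TCRBJ02-07.
CDR3 A with D1: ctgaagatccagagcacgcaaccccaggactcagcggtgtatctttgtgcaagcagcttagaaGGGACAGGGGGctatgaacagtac
CDR3 A with D2: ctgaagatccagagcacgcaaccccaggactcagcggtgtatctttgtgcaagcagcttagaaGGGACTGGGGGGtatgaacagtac
The D1 version held 1119 templates in 3 mice and the D2 version 4531 templates in 6 mice. Each had 1 N nucleotide before the D remnant and 0 after it. CDR3 B, next in abundance, was built on TCRBV12-01 and TCRBJ02-07.
CDR3 B with D1: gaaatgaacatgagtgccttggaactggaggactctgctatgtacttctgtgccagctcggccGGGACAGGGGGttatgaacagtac
CDR3 B with D2: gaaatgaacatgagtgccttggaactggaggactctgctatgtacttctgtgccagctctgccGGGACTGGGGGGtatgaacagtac
These held 1034 and 899 templates, each in 4 mice. The D1 version had 4 N nucleotides before the D remnant and 1 after it, and the D2 version 3 and 0. In both CDR3s the remnant was 11 nucleotides with D1 and 12 with D2.

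The libraries held 2332 to 15182 productive templates, a template being an estimated input molecule. They held 333 to 1409 productive rearrangements, each a distinct nucleotide sequence. 6NR was the smallest library, and 34.4% of its rearrangements were also found in another mouse, against 3.97% to 12.5% in the others. Rearrangements found in at least 2 mice made up 9.90% of productive D1 records and 8.77% of productive D2 records. Records within 1 nucleotide change of a record with at least 50 times as many templates in the same mouse were few among productive records of either gene, 2.29% with D1 and 2.51% with D2. Among non-productive records they were 9.14% and 8.50%. Most of the tested differences below were recomputed without 6NR, without shared rearrangements and without such near copies. Ties, J clusters by remnant length, base patterns, clone leaders and CDR3s made with both genes are given for all records only. So are the J clusters by V gene and the within-mouse contrasts between R and NR.

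Productive rearrangements used D1 somewhat more than D2, and the shares hardly varied between mice. D1 made up 43.2%, 44.0% and 42.2% of productive rearrangements in 1R, 2R and 3R, and 45.1%, 40.8%, 42.6% and 43.0% in 4NR to 7NR. D2 made up 37.8%, 37.1% and 38.2% in the R mice and 37.6%, 40.1%, 38.4% and 37.9% in the NR mice. D1 was ahead in each of the 7 mice, by the least in 5NR, and no test was made of this. The empty field held 17.3% to 19.6% of productive rearrangements. The means were 43.0% ± 1.36 for D1, 38.2% ± 0.956 for D2 and 18.8% ± 0.726 for the empty field (SD, n = 7).

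Non-productive rearrangements, which are not selected through their protein, leaned the other way on average, with 43.4% D2 and 39.4% D1. The order varied, with D1 ahead in 1R, the genes level in 7NR and nearly so in 4NR, and it was not tested. D1 made up 43.0%, 35.9% and 40.2% of non-productive rearrangements in 1R, 2R and 3R, and 42.3%, 37.8%, 34.8% and 41.6% in 4NR to 7NR. D2 made up 40.5%, 43.2% and 45.1% in the R mice and 42.5%, 45.0%, 46.1% and 41.6% in the NR mice. The share of D1 was higher among productive than among non-productive rearrangements in 7 of 7 mice, by 3.62 percentage points on average (p = 0.0156, adjusted p = 0.0352, exact sign-flip permutation test over mice, 9 comparisons). The share of D2 was lower in 7 of 7, and fell by 5.28 percentage points with the same p values. For the empty field the difference was 1.66 points (p = 0.109, adjusted p = 0.188, exact sign-flip test). The smallest p that 7 mice allow in this test is 0.0156. Without 6NR the differences were 2.92 and -4.89 points (p = 0.0312 each, exact sign-flip test), the smallest p that 6 mice allow. Among rearrangements with at least 2 templates the signs turned, to -2.92 points for D1 and 3.85 points for D2 (p = 0.0938 and 0.0781, exact sign-flip test), so the direction rests on rearrangements seen once. With at least 6 D nucleotides the D1 difference was 1.97 points (p = 0.125), and with each library thinned to the fewest templates the differences were 2.27 and -2.98 points (p = 0.219 and 0.0625, exact sign-flip test).

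**Figure D1:**
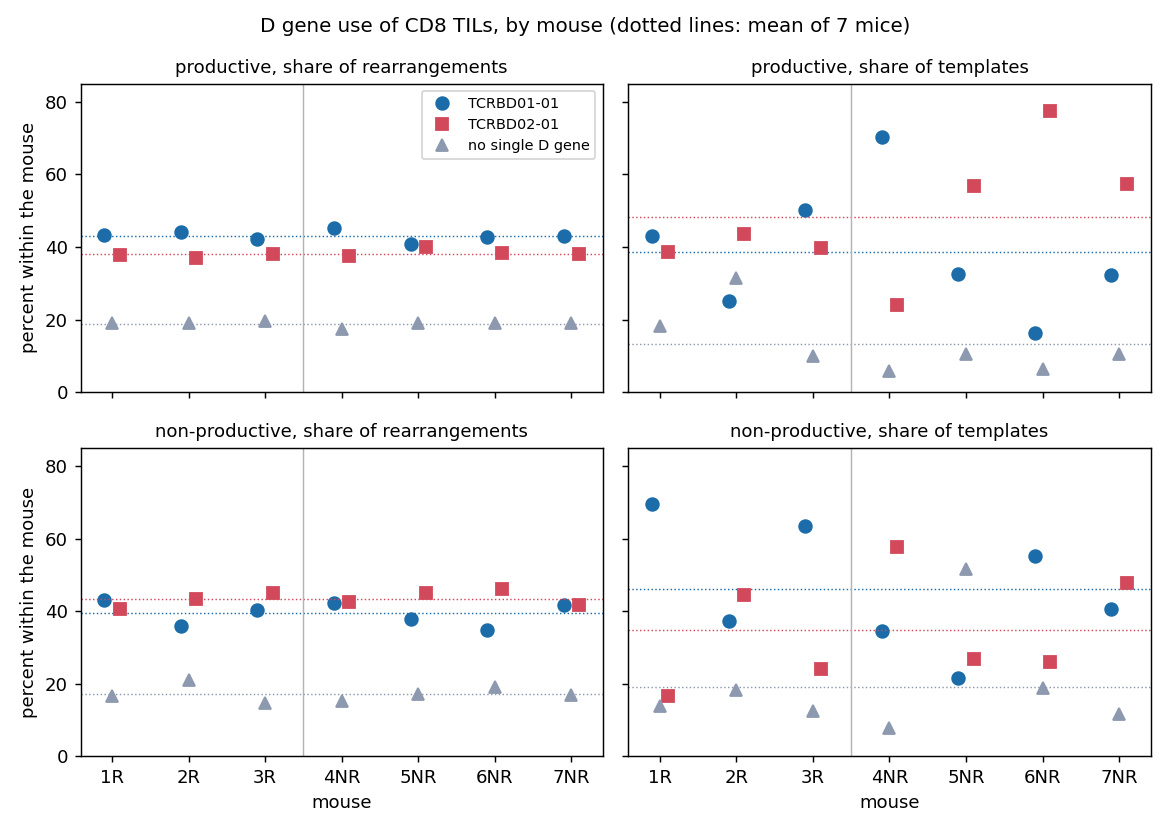
Share of D1 (circles), D2 (squares) and records without a single D gene (triangles) in each mouse, as percent of rearrangements (left) and of templates (right), for productive (top) and non-productive (bottom) rearrangements; dotted lines are means of 7 mice and the vertical line parts R from NR. Productive rearrangement shares lie between 40.8% and 45.1% for D1 and between 37.1% and 40.1% for D2, whereas productive template shares run from 16.3% to 70.3% and from 23.9% to 77.4%.

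Rearrangements of a single template were commoner with D2, above all among non-productive ones. The J clusters were counted together, and the part of the J cluster in this difference was not tested. Non-productive D1 held 5515 templates in 837 records on TCRBJ01 and 2805 in 782 records on TCRBJ02. Non-productive D2 held 220 templates in 95 records on TCRBJ01 and 5309 in 1634 records on TCRBJ02. Of non-productive D2 rearrangements, 73.2% to 79.6% had 1 template in the 7 mice, against 59.8% to 65.9% of those with D1. The ranges of the genes did not overlap. The means differed by 13.8 percentage points, 76.1% against 62.4%, with D2 higher in 7 of 7 mice (p = 0.0156, adjusted over 2 comparisons p = 0.0156, exact sign-flip test; the comparison was added after the data had been seen). Without near copies the difference was 17.3 points. Among productive rearrangements D2 stood at 58.7% and D1 at 56.1%, a difference of 2.58 points (p = 0.0156, adjusted p = 0.0156, exact sign-flip test). Without shared rearrangements that smaller difference was 2.17 points (p = 0.0938, exact sign-flip test), and with at least 6 D nucleotides 3.32 points (p = 0.125, exact sign-flip test).

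The J clusters separated the D genes sharply. D1 was joined to TCRBJ02 in 50.6%, 51.6% and 53.7% of its productive rearrangements in 1R, 2R and 3R, and in 57.2%, 55.3%, 52.8% and 49.1% in 4NR to 7NR. D2 was joined to TCRBJ02 in 93.4%, 94.4% and 94.2% in the R mice, and in 94.7%, 96.1%, 93.8% and 94.8% in the NR mice. D1 thus divided almost evenly between the clusters and D2 lay nearly all in TCRBJ02, with no overlap between the genes. The difference was 41.6 percentage points, 94.5% ± 0.852 against 52.9% ± 2.79 (SD, n = 7; higher in 7 of 7 mice, p = 0.0156, adjusted p = 0.0352, exact sign-flip test). Non-productive rearrangements gave 94.5% ± 0.840 against 49.3% ± 3.22, a difference of 45.2 points with the same p values. Without 6NR the differences were 41.7 and 46.0 points, and without shared rearrangements 42.9 and 44.9 points.

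The tied records lay near D1. By mouse, 51.9% to 66.5% of productive ties were on TCRBJ02, which overlapped D1 (49.1% to 57.2%) and lay below D2 (93.4% to 96.1%). TCRBJ02 held 57.5% of the 1152 productive ties and 57.9% of the 152 productive records without D nucleotides. Read the other way, D2 made up 61.4% of productive D calls on TCRBJ02 and 9.33% of those on TCRBJ01. Among non-productive calls it made up 67.6% and 10.2%.

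D2 joined to TCRBJ01, an order that deletion cannot give in this locus, was called in 240 records, 145 productive and 95 non-productive. Of these calls, 56 had 2 or 3 D nucleotides, 51 had 4 or 5, 105 had 6 or 7, 27 had 8 or 9 and 1 had 10 or 11. Their median remnant was 6 nucleotides, productive and non-productive alike, against 9 for D2 on TCRBJ02. For D1 on TCRBJ01 the median was 6 too. With 2 or 3 D nucleotides, 30.4% of D2 calls were on TCRBJ01 (56 of 184; 95% Wilson interval 24.2% to 37.4%). The share fell to 18.1% at 4 or 5 nucleotides, 11.1% at 6 or 7 and 2.05% at 8 or 9. At 10 or 11 nucleotides it was 1 of 1066 records, or 0.0938% (95% Wilson interval 0.0166% to 0.529%). At 12 to 14 nucleotides it was 0 of 570, which allows a share of up to 0.526% by the limit of 3 counts and of up to 0.669% by the 95% Wilson interval. For D1 the share on TCRBJ01 moved far less, from 54.1% at 2 or 3 nucleotides to 41.7% at 10 or 11 and 47.1% at full length. Counting only remnants of at least 9 nucleotides, D2 was called on TCRBJ01 in 4 of 2211 records (0.181%) and D1 in 46.6% of 1131.

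**Figure D2:**
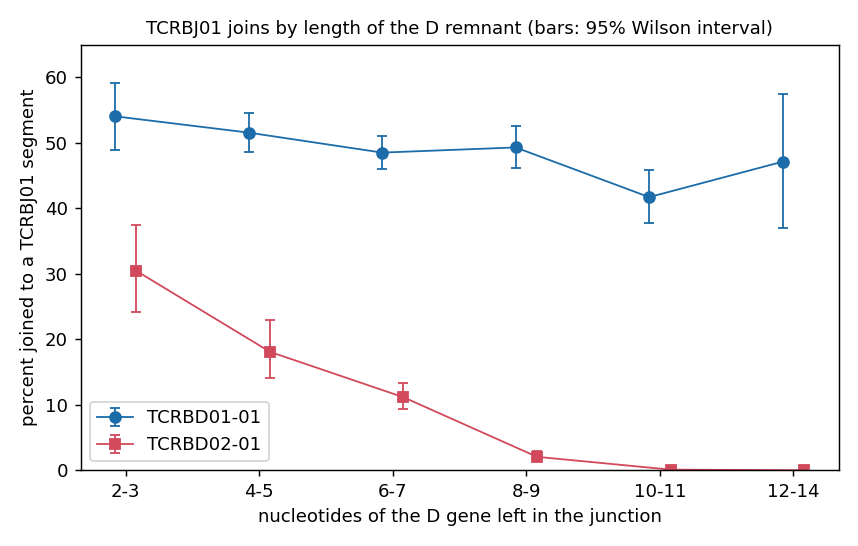
Percent of D1 (circles) and D2 (squares) calls joined to a TCRBJ01 segment, by the number of D nucleotides left, productive and non-productive records of 7 mice together; bars are 95% Wilson intervals. D2 falls from 30.4% to 0 of 570 records while D1 stays between 41.7% and 54.1%.

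The letters of these remnants differed too, but no comparison was made at matched length. Productive D2 remnants averaged 5.28 nucleotides on TCRBJ01 and 8.67 on TCRBJ02, and those of D1 6.53 and 6.81. The base pattern ACT, which spans the central difference between the genes, stood in the remnants of 11.2% of D2 calls on TCRBJ01 and of 58.1% of those on TCRBJ02, searched on the strand of the read. The intact start GGGACT stood in 2.92% and 22.9%. For D1 the matching pattern ACA stood in 71.7% on TCRBJ01 and 67.1% on TCRBJ02. The most abundant non-productive and productive D2 records on TCRBJ01 are printed with the remnant in capitals.
D2 with TCRBJ01-04, non-productive: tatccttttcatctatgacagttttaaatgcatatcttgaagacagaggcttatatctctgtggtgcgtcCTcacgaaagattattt
D2 with TCRBJ01-03, productive: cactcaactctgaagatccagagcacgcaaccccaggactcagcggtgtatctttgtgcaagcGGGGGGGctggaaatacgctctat
The first, on TCRBV20-01 in 5NR, held 41 templates, and the second, on TCRBV16-01 in 1R, held 19. The run of G in the second is longer than that in D1.

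Within each cluster both D genes used the segments in a similar order. On TCRBJ01, D1 took TCRBJ01-01 in 27.7% ± 3.58 of its productive TCRBJ01 rearrangements, TCRBJ01-04 in 21.3% ± 2.12 and TCRBJ01-02 in 20.4% ± 2.93 (SD, n = 7). TCRBJ01-03, TCRBJ01-05 and TCRBJ01-06 followed at 11.9%, 9.92% and 8.63%, and TCRBJ01-07 appeared in 2 productive D1 records. The 145 productive D2 records on TCRBJ01 led with TCRBJ01-01 too, in 54.

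On TCRBJ02, the cluster both genes can join, TCRBJ02-07 led with either gene, in 33.6% ± 3.97 of D1 and 36.0% ± 4.24 of D2 rearrangements (SD, n = 7). TCRBJ02-01 was next, in 20.6% ± 1.79 with D1 and 16.7% ± 1.09 with D2. It was lower with D2 in 7 of 7 mice, but the difference of -3.98 points did not pass the correction over 7 segments (p = 0.0156, adjusted p = 0.109, exact sign-flip test). The adjusted p of that segment ranged from 0.109 to 0.219 when each mouse was left out. TCRBJ02-05 stood at 16.2% and 15.8%, TCRBJ02-04 at 10.2% and 12.6%, TCRBJ02-03 at 8.88% and 11.4%, and TCRBJ02-02 at 10.4% and 7.59%, D1 before D2. TCRBJ02-06 was found in 1 and 2 productive records. By the exact sign-flip test 0 of 7 segments (0% called) differed at an adjusted p below 0.05, and 1 did at an unadjusted p below 0.05.

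Non-productive rearrangements differed more, in a comparison added after the data had been seen. TCRBJ02-07 held 45.1% ± 6.08 of the non-productive D2 rearrangements on TCRBJ02 and 32.6% ± 3.18 of those with D1 (SD, n = 7). The mice ranged from 37.1% to 53.3% with D2 and from 28.9% to 36.8% with D1, so the genes did not overlap. The difference of 12.5 points was positive in 7 of 7 mice but did not pass the correction over 7 segments (p = 0.0156, adjusted p = 0.0547, exact sign-flip test). TCRBJ02-02 was lower with D2 in 7 of 7 mice, at 6.13% against 10.6%, with the same p values. By the same test 0 of 7 segments (0% called) passed, and 2 had an unadjusted p below 0.05. Without near copies the TCRBJ02-07 difference was 12.9 points. With at least 2 templates it was 4.43 points, and with at least 9 D nucleotides 0.058 points, 49.4% against 49.3% (adjusted p = 0.738 and 0.969, exact sign-flip test).

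V genes did not pair evenly with the D genes. The comparison was limited to TCRBJ02 rearrangements, and rearrangements rather than templates were counted, so that each nucleotide sequence counts once per mouse. A CDR3 encoded in several ways therefore counts several times. The log2 ratios below are those of the fit, which scales the D1 and D2 counts of each mouse to their totals over V genes, so that 0 stands for about the D2 share of all V genes and not for equal numbers. Of 22 V genes tested among productive rearrangements, 8 (36.4% called) differed between D2 and D1 in the quasi-likelihood test of edgeR, adjusted by Benjamini-Hochberg, 4 in each direction. Among non-productive rearrangements 2 of 23 (8.7% called) differed, both towards D1, with 5 at an unadjusted p below 0.05. Of the 22 genes tested in both, 17 had the same sign.

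TCRBV26-01 leaned most towards D1. D2 made up 22.2%, 43.5% and 23.1% of its productive D calls in 1R, 2R and 3R, and 45.5%, 14.3%, 27.3% and 20% in 4NR to 7NR, all below the 57.9% to 63.1% found over all V genes in these mice. Its log2 ratio of D2 to D1 was -2.02 (SE 0.31, adjusted p = 2.63e-08 by edgeR), from 89 D1 and 34 D2 rearrangements. Non-productive rearrangements gave -1.96 (SE 0.44, adjusted p = 0.00573 by edgeR). TCRBV29-01, which lies nearby and closer to the D genes, stood at 25.0% to 48.0% D2 in the 7 mice, with a log2 ratio of -1.38 (SE 0.28, adjusted p = 3.87e-05 by edgeR) and -1.77 in non-productive rearrangements (SE 0.49, adjusted p = 0.0198 by edgeR). TCRBV26-01 remained called in 16 of 16 productive alternatives and TCRBV29-01 in 15 of 16. In non-productive rearrangements TCRBV26-01 remained called in 15 of 16 and TCRBV29-01 in 11 of 16. The latter call was lost without 4NR (adjusted p = 0.0555), without 5NR (adjusted p = 0.123), without the filter on low counts (adjusted p = 0.0833) and with at least 9 D nucleotides, all by edgeR.

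TCRBV04-01, near the far end of the locus, leaned most towards D2. D2 made up 81.1%, 85.7% and 77.8% of its productive D calls in the R mice and 75.0%, 71.9%, 81.8% and 80.0% in the NR mice, above the all-V share of each mouse. The log2 ratio was 1.16 (SE 0.29, adjusted p = 0.000840 by edgeR), and TCRBV04-01 remained called in 15 of 16 alternatives. Non-productive rearrangements gave 0.84 (SE 0.34, adjusted p = 0.161 by edgeR). TCRBV31-01, which lies behind the D and J segments and joins by inversion, gave 0.78 (SE 0.32, adjusted p = 0.0413 by edgeR) and, non-productive, 1.06 (SE 0.46, adjusted p = 0.161 by edgeR). TCRBV13-02 gave 0.70 (adjusted p = 0.00887) and TCRBV16-01, the V gene of the CDR3 A versions shown, 0.67 (adjusted p = 0.0154), both by edgeR. TCRBV16-01 had 93 D1 and 233 D2 rearrangements. CDR3 A, found with 2 V genes, had 14 D1 and 64 D2 productive records. Fewer alternatives held these calls, TCRBV31-01 in 8 of 16, TCRBV13-02 in 9 of 16 and TCRBV16-01 in 7 of 16.

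A pair of other genes leaned to D1. TCRBV13-03 gave -0.80 (SE 0.22, adjusted p = 0.00204 by edgeR) and remained called in 12 of 16 alternatives. TCRBV24-01 gave -0.96 (SE 0.35, adjusted p = 0.0217 by edgeR), remained called in 5 of 16, and 30 of its 53 D1 rearrangements came from 5NR. Without 5NR its log2 ratio was -0.20 (adjusted p = 0.757 by edgeR). The other much-used genes, TCRBV19-01 at 0.28 and TCRBV12-01 at 0.44, did not pass (adjusted p = 0.318 and 0.117 by edgeR). Without shared rearrangements, and with DESeq2, 3 productive V genes were called in each case, TCRBV04-01, TCRBV26-01 and TCRBV29-01.

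Grouped along the locus, the called genes lay as follows among productive rearrangements. Of 5 genes from TCRBV01 to TCRBV05, 1 leaned to D2 and 0 to D1. Of 5 in TCRBV12 and TCRBV13, 1 leaned each way, and of 4 from TCRBV14 to TCRBV17, 1 leaned to D2. Of 7 from TCRBV19 to TCRBV30, 3 leaned to D1 and 0 to D2. D2 made up 65.4%, 62.4%, 65.3% and 50.6% of the D calls of these groups in turn, and 73.2% for TCRBV31-01. In non-productive rearrangements the shares were 71.3%, 70.6%, 72.7%, 54.9% and 82.4%.

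**Figure D3:**
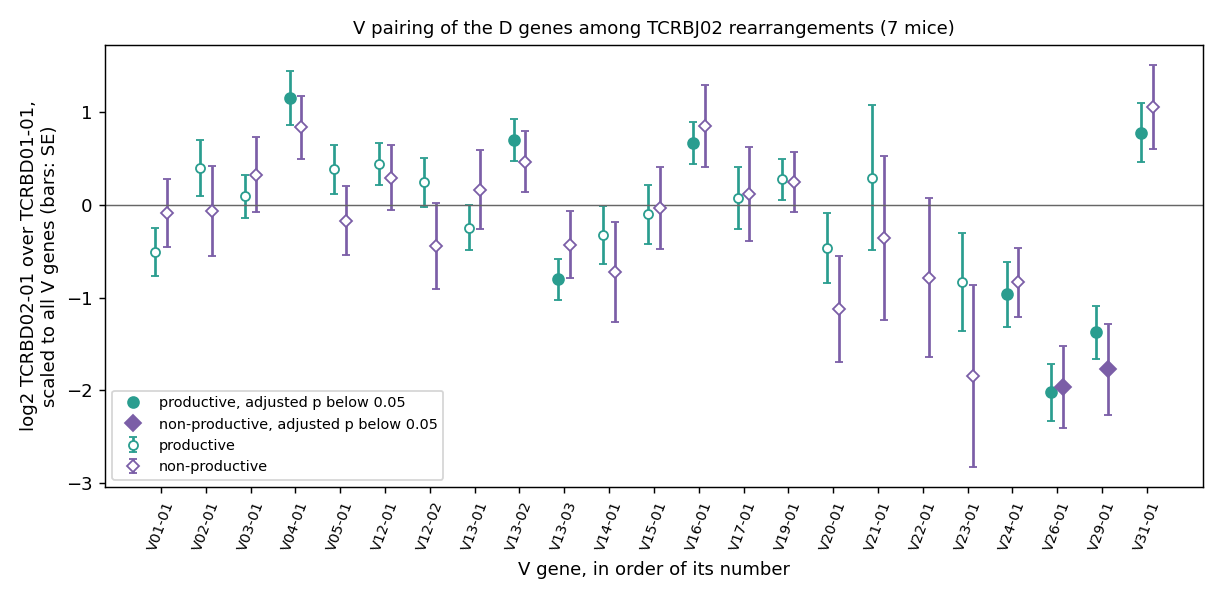
Log2 ratio of D2 to D1 rearrangements for each V gene among TCRBJ02 rearrangements, scaled so that 0 stands for the share of all V genes, productive (circles) and non-productive (diamonds), with SE bars from the edgeR fit over 7 mice; filled symbols have an adjusted p below 0.05. TCRBV26-01 and TCRBV29-01 lie lowest of the called genes in both kinds and TCRBV04-01 highest among productive ones, at 1.16.

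The length of the D call bears on these ratios, because a short remnant can be given to the wrong gene. With at least 9 D nucleotides, D2 made up 76.4% of productive D calls on TCRBJ02. It made up 20% of the longer calls of TCRBV26-01, 52.1% of those of TCRBV29-01, 75.7% of those of TCRBV13-03, 87.8% of those of TCRBV04-01 and 94.0% of those of TCRBV31-01. Against the share of all V genes, TCRBV26-01 and TCRBV29-01 thus still lay low, TCRBV13-03 lay close to it, and TCRBV04-01 and TCRBV31-01 lay high.

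The fit of these fewer counts depended on the scaling. With TMM the log2 ratios of all tested V genes moved by a median of 0.85, and without TMM by 0.24. With TMM 4 V genes were called, TCRBV04-01, TCRBV13-02, TCRBV26-01 and TCRBV31-01, while TCRBV29-01 stood at -0.95 (adjusted p = 0.109 by edgeR). Without TMM 3 were called, TCRBV26-01 at -3.60, TCRBV29-01 at -1.49 and TCRBV31-01 at 2.15 (adjusted p = 5.09e-05, 0.00563 and 0.0448 by edgeR). TCRBV04-01 then stood at 1.14 (adjusted p = 0.244 by edgeR). TCRBV13-03 was 0.59 with TMM and -0.048 without it. All genes called in either way were among the 8. In non-productive rearrangements D2 made up 81.8% of the longer calls over all V genes and 97.6% of those of TCRBV31-01, the single gene called with TMM, at 3.47. Without TMM the single gene called was TCRBV26-01, at -2.62 (adjusted p = 0.0118 by edgeR). With remnants of any length, leaving out TMM moved the productive ratios by a median of -0.0025.

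The J cluster is read without the D call, and the share joined to TCRBJ01 was set beside the lean of each called V gene. Among all productive rearrangements the D1-leaning genes TCRBV26-01, TCRBV29-01, TCRBV24-01 and TCRBV13-03 were joined to TCRBJ01 in 38.1%, 35.8%, 33.5% and 27.8%, ranks 2, 4, 8 and 14 of 21 V genes. The D2-leaning genes TCRBV13-02, TCRBV31-01, TCRBV16-01 and TCRBV04-01 were joined to it in 34.1%, 30.9%, 23.8% and 20.4%, ranks 5, 12, 17 and 20. The median over V genes was 31.7%. The ranges of the D1-leaning and D2-leaning genes overlapped, and no test was made of these shares.

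Productive junctions carried fewer N nucleotides than non-productive ones with either D gene, and the D genes did not differ from each other measurably. On TCRBJ02, productive D1 junctions carried 3.06, 3.36 and 3.47 N nucleotides in 1R, 2R and 3R and 3.16, 3.32, 3.51 and 3.26 in 4NR to 7NR. Productive D2 junctions carried 3.41, 3.55 and 3.34 in the R mice and 3.54, 3.43, 2.92 and 3.19 in the NR mice. D2 was higher in 4 of 7 mice, by 0.0367 on average (p = 0.812, adjusted p = 0.812, exact sign-flip test). The difference within mice had an SD of 0.337, and without 6NR it was 0.141 (p = 0.188, exact sign-flip test). Non-productive junctions carried 4.75 ± 0.387 with D1 and 4.53 ± 0.325 with D2 (SD, n = 7; difference -0.22, p = 0.125, adjusted p = 0.188, exact sign-flip test). From non-productive to productive the number fell by 1.44 with D1 and by 1.19 with D2, in 7 of 7 mice each (p = 0.0156, adjusted over 15 comparisons p = 0.0391, exact sign-flip test). These 15 comparisons were added after the data had been seen. Medians moved less than these means. The median of a mouse averaged 3.86 with D1 and 3.71 with D2 in non-productive junctions, and 3 with either gene in productive ones.

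N nucleotides lay on both sides of the D remnant. Productive D1 junctions on TCRBJ02 carried 1.75 between V and D and 1.52 between D and J, and D2 junctions 1.73 and 1.64. No N nucleotide was present in 11.5% of the D1 and 9.77% of the D2 junctions, and in 6.39% and 6.92% of the non-productive ones. Productive ties on TCRBJ02, with a mean remnant of 3.94 nucleotides, carried 3.81 N nucleotides. Productive records without D nucleotides carried 1.82, and 19.7% of them had none.

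The D2 remnant was longer than that of D1 in 7 of 7 mice, 8.69 ± 0.177 against 6.86 ± 0.287 nucleotides (SD, n = 7; p = 0.0156, adjusted p = 0.0391, exact sign-flip test). The difference of 1.84 nucleotides lay near the 2 nucleotides by which the untrimmed genes differ. D2 lost 2.63 nucleotides at its 5′ end and D1 2.18, a difference of 0.455 (same p values, 7 of 7 mice). At the 3′ end D2 lost 2.68 and D1 2.97, a difference of -0.29 in 6 of 7 mice that did not pass the correction (p = 0.0312, adjusted p = 0.0521, exact sign-flip test). Untrimmed D genes were rare, 2.11% of productive D1 and 1.21% of productive D2 rearrangements on TCRBJ02. Productive CDR3s were 43.4 ± 0.194 nucleotides long with D2 and 41.3 ± 0.307 with D1, longer with D2 by 2.07 in 7 of 7 mice (p = 0.0156, adjusted p = 0.0391, exact sign-flip test).

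**Figure D4:**
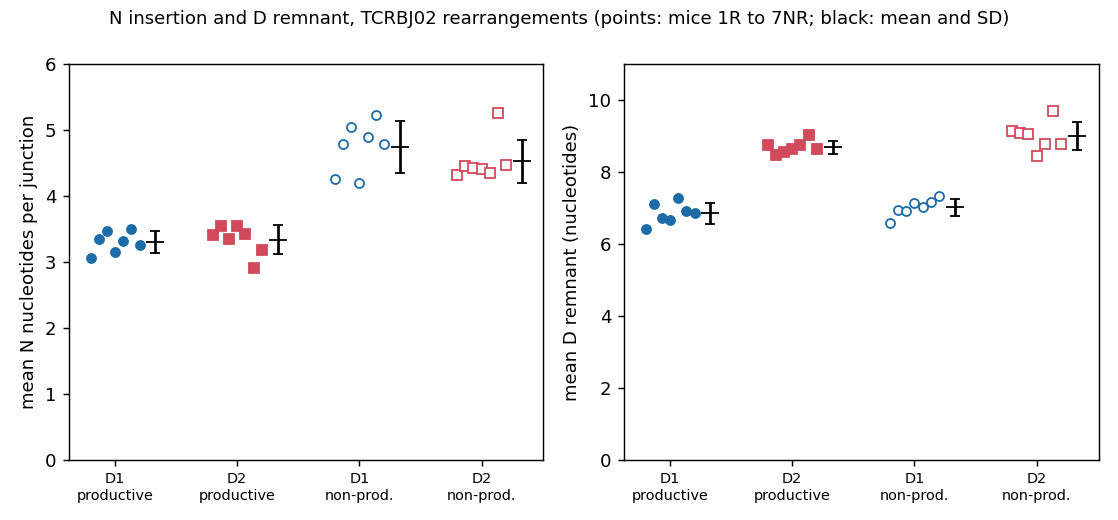
Mean N nucleotides per junction (left) and mean length of the D remnant in nucleotides (right) in each mouse, for D1 (circles) and D2 (squares) on TCRBJ02, productive (filled) and non-productive (open); black bars are mean and SD of 7 mice. Productive means lie at 3.30 and 3.34 N nucleotides, non-productive ones at 4.75 and 4.53, and productive remnants at 6.86 and 8.69 nucleotides.

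A D gene can be read in each of the 3 reading frames. The frame is given here as the position within a codon of the first base of the untrimmed D gene. Both J clusters were counted here, and the part of the J cluster in differences between the D genes was not tested. Productive D1 rearrangements had it at position 1 in 37.6% ± 3.30, position 2 in 28.5% ± 3.70 and position 3 in 33.9% ± 3.54 (SD, n = 7). Productive D2 rearrangements had it at 35.8% ± 3.93, 35.3% ± 3.34 and 28.9% ± 2.66. Position 2 was commoner with D2 by 6.73 points in 7 of 7 mice (p = 0.0156, adjusted p = 0.0391, exact sign-flip test), while positions 1 and 3 did not pass (adjusted p = 0.216 and 0.0639, exact sign-flip test). Between productive and non-productive rearrangements no frame of either gene passed the correction. The lowest adjusted p there was 0.0521 by the exact sign-flip test, for position 2 of D1 (-4.24 points) and position 3 of D2 (-4.81 points).

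Weighted by templates the frames looked different. Position 1 held 75.7% of the productive D2 templates of the 7 mice together, against 35.1% of the rearrangements. Position 3 held 54.7% of the productive D1 templates, against 33.4% of the rearrangements. The mice differed widely in these template shares. Position 3 of D1 ran from 27.5% in 7NR to 74.6% in 3R, and position 1 held more in 5NR (51.1%) and 7NR (60.7%). Position 1 of D2 ran from 41.2% in 3R, where position 3 held 48.05%, to 86.2% in 5NR. Position 1 of D2 is the frame of CDR3 A as shown above, whose D2 versions held 12938 of the 31374 productive D2 templates.

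Shares of templates scattered widely around the steady shares of rearrangements. D1 held 43.1%, 25.1% and 50.3% of productive templates in 1R, 2R and 3R, and 70.3%, 32.6%, 16.3% and 32.3% in 4NR to 7NR. D2 held 38.7%, 43.5% and 39.7% in the R mice and 23.9%, 56.9%, 77.4% and 57.3% in the NR mice. D2 held more templates than rearrangements in 6 of 7 mice, 4NR being the exception, and D1 in 3R and 4NR. The ratio of template share to rearrangement share was 1.26 ± 0.439 for D2 and 0.893 ± 0.395 for D1 (SD, n = 7). The log2 ratios differed by 0.55 with an SD of 1.17, so the difference did not exceed the spread between mice (higher for D2 in 5 of 7, p = 0.297, adjusted p = 0.334, exact sign-flip test). Without the most abundant rearrangement of each mouse it was -0.18, and without 6NR 0.24. Non-productive templates gave -0.58 (p = 0.234, adjusted p = 0.301, exact sign-flip test). Without the most abundant rearrangement that became -0.72 (p = 0.0312, exact sign-flip test).

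Single clones held a large part of these templates. The most abundant D2 rearrangement held 31.0% to 76.6% of a mouse's productive D2 templates, and the most abundant D1 rearrangement 10.3% to 39.6% of its D1 templates. Without the most abundant rearrangement of each mouse the productive template shares still ran from 28.3% to 64.1% for D1 and from 15.2% to 60.7% for D2. Their SD over mice was then 13.9 points against 17.9 with all rearrangements for D1, and 14.96 against 17.2 for D2. The D2 leader was CDR3 A on TCRBV16-01 and TCRBJ02-07 in 2R (2850 templates, 33.3% of productive templates), 5NR (2713, 23.1%), 6NR (992, 42.5%) and 1R (1653). In 3R it was another TCRBV16-01 and TCRBJ02-07 rearrangement, with 1565 templates and a D remnant of 3 nucleotides. In 4NR it was a TCRBV13-03 and TCRBJ02-05 rearrangement with 531 templates, or 10.5%. In 7NR it was a TCRBV16-01 and TCRBJ02-07 rearrangement other than CDR3 A, with 5703 templates, or 37.6%, and a D remnant of 9 nucleotides.

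The D1 leaders shared less. They were TCRBV13-03 with TCRBJ02-01 in 1R (2357 templates, 17.1% of productive templates), TCRBV01-01 with TCRBJ01-04 in 2R (641, 7.49%) and TCRBV13-03 with TCRBJ01-05 in 3R (1448, 14.7%). In the NR mice they were CDR3 A in 4NR (873, 17.2%), CDR3 B in 5NR (969, 8.25%), TCRBV31-01 with TCRBJ01-03 in 6NR (39, 1.67%) and TCRBV01-01 with TCRBJ02-07 in 7NR (615, 4.05%). The D1 leaders of 2R, 3R and 6NR were joined to TCRBJ01, and all 7 D2 leaders to TCRBJ02. These counts lay near the shares of all productive rearrangements, 47.1% of D1 on TCRBJ01 and 94.5% of D2 on TCRBJ02. Clones above 1% of productive templates numbered 42 of 2970 rearrangements with D1 and 28 of 2633 with D2 over the 7 mice, and 9 of 1304 with an empty field. The balance varied and was not tested. D1 had more in 1R, 2R, 4NR (10 against 1), 5NR and 7NR, the genes had 8 each in 3R, and D2 had more in 6NR (7 against 2). The median productive rearrangement had 1 template with either gene in each mouse.

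A CDR3 amino acid sequence made with D1 in one rearrangement and with D2 in another was rare in number and frequent in templates. Of 4610 distinct CDR3s among productive D-called rearrangements, 27 (0.586%) occurred with both genes, and they held 17101 templates, 29.9% of the D-called productive templates. Of the 27, 25 were mainly on TCRBJ02, 11 of them on TCRBJ02-07. Each of the 27 needs a D2 call, and over all productive rearrangements TCRBJ02 held 94.5% of D2 and 52.9% of D1. TCRBJ02-07 held 36.0% of the D2 and 33.6% of the D1 rearrangements on TCRBJ02. These counts are therefore no separate result about the shared CDR3s. Glycine, threonine and glycine in a row occurred in 13 of the 27 and in 361 of all 4610. The pair of CDR3s shown at the start held 95.5% of these templates.

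CDR3 A was made with D2 in all 7 mice and with D1 in 4. The D2 versions held 24.1%, 33.5% and 3.40% of productive templates in 1R, 2R and 3R and 0.0395%, 38.1%, 54.7% and 4.36% in 4NR to 7NR. The D1 versions were found in 1R at 0.587%, and among the NR mice 4NR had 17.4%, 5NR 0.0170% and 7NR 3.15%. They were not found in 2R, 3R and 6NR. In 4NR the CDR3 was thus nearly all D1, 879 templates against 2, and in the other mice D2 held the larger part. It was encoded by 41 nucleotide sequences with D2, in 12938 templates, and by 11 with D1, in 1440. CDR3 B held 1047 D1 and 914 D2 templates, of which 981 and 831 came from 5NR, so the near-even division rests mainly on that mouse. Both kinds occurred in each of 3R, 5NR, 6NR and 7NR. In 6NR and 7NR there was 1 record of each kind, with 8 D1 and 10 D2 templates in 6NR and 3 and 2 in 7NR. In 5NR CDR3 B held 8.36% with D1 and 7.08% with D2.

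**Figure D5:**
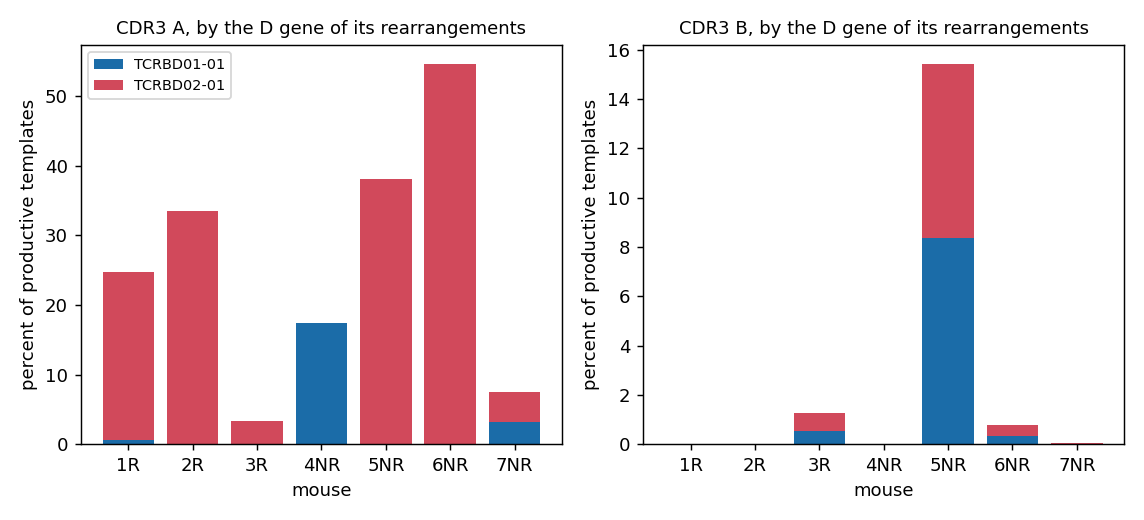
Percent of productive templates in each mouse held by CDR3 A (left) and CDR3 B (right), divided into versions with a D1 remnant and with a D2 remnant; the vertical scales differ. The left CDR3 is nearly all D1 in 4NR, at 17.4%, and mostly D2 in the other mice, up to 54.7% in 6NR.

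Use of the D genes was compared between R and NR as the design of the study implies. D1 made up 43.1% ± 0.899 of productive rearrangements in R (SD, n = 3) and 42.9% ± 1.78 in NR (SD, n = 4), and D2 37.7% ± 0.558 and 38.5% ± 1.12. The groups overlapped for D1 and for D2 (difference 0.245 points, p = 0.83, adjusted p = 0.971, and -0.81 points, p = 0.343, adjusted p = 0.771, exact permutation test over 35 divisions, 6 comparisons). The smallest p this design allows is 0.0286. In templates D1 held 39.5% ± 12.97 in R and 37.9% ± 22.9 in NR, and D2 40.6% ± 2.53 and 53.9% ± 22.1 (p = 0.971 and 0.429, adjusted p = 0.971 and 0.771, exact permutation test). For empty records the template share was 19.9% ± 10.8 among R mice and 8.26% ± 2.58 among NR mice (difference 11.6 points, p = 0.0857, adjusted p = 0.514, exact permutation test). The highest of these, 31.4% in 2R, rested on a tied TCRBV29-01 and TCRBJ02-05 record of 1799 templates that made up 67.0% of the empty templates of that mouse.

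The within-mouse contrasts were compared between the groups as well, and for 9 contrasts p ranged from 0.171 to 1 (exact permutation test). The excess of D2 over D1 on TCRBJ02 was 42.0 points in R and 41.2 in NR among productive rearrangements (p = 0.686, exact permutation test). The rise of D1 from non-productive to productive was 3.45 points in R and 3.75 in NR (p = 0.886, exact permutation test). The lowest p was that of the non-productive log2 ratio of template to rearrangement share, D2 minus D1, which was -1.19 with an SD of 1.03 for the R mice and -0.12 with an SD of 0.955 for the NR mice (p = 0.171, exact permutation test). The productive ratio was 0.29 in R and 0.74 in NR (p = 0.657), and the productive N difference was 0.138 and -0.0397 nucleotides (p = 0.6, exact permutation test).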

How the data were processed

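TCRβ CDR3 regions were amplified from genomic DNA of purified CD8 TILs by multiplex PCR and sequenced on the immunoSEQ platform, with 1 library from each mouse. For every nucleotide rearrangement the authors deposited a template count, a whole number estimated from reads by their service provider and not normalized. The deposited records also name V, D and J genes, called against IMGT per the paper, with insertions, deletions and indexes. Neither build nor aligner version is given in the sources used here, so no coordinates are printed; the order of genes along the locus is general knowledge. The provider's per-mouse overview was not used.

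D remnants were cut out by the deposited indexes. Shares were computed within each mouse and class, over all records including those with an empty D gene. D1 and D2 were compared with the two-sided exact sign-flip permutation test over 7 mice (128 sign assignments), and R with NR by the two-sided exact permutation test over 35 divisions, with Benjamini-Hochberg adjustment per family. V pairing was tested with edgeR 4.0.16 in R 4.3.3 on numbers of rearrangements of each V gene per mouse and D gene, with the mouse as a block, TMM normalization, V genes of at least 10 rearrangements and a common dispersion, since few genes were tested; DESeq2 1.42.0 was an alternative. The scripts were tested on simulated data. Python 3.11.15, scipy 1.17.1, pandas 2.3.3 and edlib 1.3.9.post1 served the rest. Named V genes were the 5 most used, TCRBV31-01 and those called; named clones were the leader of each D gene in each mouse. The CDR3s made with both genes, the reading frames, remnants, near copies, single-template shares and non-productive J segments were chosen after values had been seen. Members and lists were chosen with earlier results of these data known. Wilson intervals and limits from a count of 0 cover counting error only.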

Additional observations from a re-analysis of the deposited data

Results flagged for a closer look

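Records with an empty D gene made up 17.3% of productive rearrangements in 4NR, below the other 3 NR mice, which lay between 18.9% and 19.1%. 4NR stood apart because its gap to the next mouse was 0.897 of the range of the NR group. Chance sets apart about 1 in 20 such groups.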

How the results depend on the processing

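Over 66 results, 868 alternatives were computed. Of those that left out no mouse 320 kept direction and side of the threshold, 26 reversed, 44 lost and 9 gained a call, and 7 counts moved; with 1 mouse left out 392 kept both, 14 reversed, 49 lost and 1 gained a call, and 6 counts moved. The J cluster difference kept both under all its alternatives (40.9 to 42.3 points productive and 44.6 to 46.0 non-productive when a mouse was left out). Reversals whose cause was not tested are given by setting.

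With at least 2 templates the productive minus non-productive difference was -2.92 points for D1, 3.85 for D2 and -0.92 for empty records; R minus NR was 0.57 for D2 and -0.91 for empty rearrangements, and codon position 1 of D2 minus D1 1.505. With at least 6 D nucleotides it was 1.97 for D1 and 4.18 for empty records (p = 0.0469, exact sign-flip test), and R minus NR for D1 -0.28. Thinning gave 2.27 for D1, -2.98 for D2 and -0.22 for R minus NR of D1. Without shared rearrangements R minus NR was -0.15 for D1 rearrangements, -11.2 for D1 templates and 7.52 for D2 templates, and codon position 3 of D1 was -1.68. Without the most abundant rearrangement the log2 ratio of template to rearrangement share was -0.18 productive and -0.72 non-productive (p = 0.0312, exact sign-flip test), and R minus NR of D1 templates -3.68. The productive N difference was -0.0369 with all J segments, 0 by medians and -0.44 weighted by templates. Left-out mice gave -0.0219 to 0.141 for it, -0.45 to 0.996 for R minus NR of D1 rearrangements and -5.55 to 12.5 for D1 templates. They also gave -0.19 (6NR) to 1.60 for codon position 3 of D1, -1.65 to 0.472 (6NR; 0.0143 without 1R) for TCRBJ02-05, and -0.0350 (4NR; -0.0279 without 3R) to 0.0921 for TCRBJ02-06.

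The productive V count of 8 was 3 without shared rearrangements and with DESeq2, 4 with at least 9 D nucleotides (3 if TMM was also left out), and 5 to 8 with 1 mouse left out (5 without 1R, 2R, 3R, 5NR or 6NR). It was 6 without a filter, 7 without the mouse block, 8 without TMM and with all J segments, and 9 without near copies. The non-productive count of 2 was 1 without a filter, 1 with at least 9 D nucleotides (0 shared with the 2; without TMM 1, shared), 3 with DESeq2 and with all J segments, and 1 to 2 with 1 mouse left out (1 without 5NR). TCRBV13-03 was 0.59 productive and 0.74 non-productive with at least 9 D nucleotides, a setting that moved the median of all V genes by 0.85 and 0.69, and without TMM -0.048 and 0.195 (median moved by 0.24 and 0.20); its D2 shares of 75.7% and 81.7% lay close to the 76.4% and 81.8% of all V genes. It was 0.37 non-productive without near copies. Non-productive TCRBJ02-02 was 0.519 points with at least 9 D nucleotides. With DESeq2, non-productive TCRBV12-01 was -0.031 and TCRBV19-01 -0.067. The near copies, the 9-nucleotide settings, the non-productive J segments and all alternatives to comparisons added later were chosen after seeing the data.

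The labels number R and NR mice, and the deviations of same-numbered mice had correlations of -0.0375, -0.40 and 0.159 over 61 V, D and J cluster combinations. The numbers were not used as pairs in the main comparison. These correlations cannot show whether same-numbered mice shared a batch, which need not shift such combinations. With a replicate block R minus NR was -0.20 points for D1 templates, where it reversed, and 0.27, -1.002, 0.73, -12.1 and 12.3 for D1, D2 and empty rearrangements and D2 and empty templates; none passed the test.

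With 3 against 4 mice the R and NR comparison cannot give p below 0.0286. Short remnants limit the D call. V genes with few rearrangements, such as TCRBV21-01 with 12 productive records, allow little precision.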
